A study of Mus musculus with 35 samples.

Results

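Heat shock proteins and chaperones were examined in hematopoietic stem and progenitor cells (HSPCs) from the bone marrow of WT and JMJD1B-/- mice. The genes were found by name: HSP70 and HSP110 (Hspa, Hsph), HSP90, small heat shock proteins (Hspb), the mitochondrial chaperonin (Hspd, Hspe), the J-domain proteins DnaJ A, B and C, the chaperonin CCT (Cct and Tcp1), the protein disulfide isomerases (Pdia), calreticulin and calnexin (Calr, Canx) and the heat shock factors Hsf1 and Hsf2. This rule found 77 of the 11982 gene names in the deposited expression table, and all 77 passed the filter on low values, among 11863 genes tested. The table lists a gene if it exceeds 1 RPKM in at least 1 library, so genes of the family below that level in all 4 are not among the 77. The name rule also takes in genes named after a heat shock protein that are not chaperones themselves, such as Hspbp1, Hspbap1 and Hspb11. Hspb1, the gene of HSP27, was not analysed here.

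The RNA-seq data are 4 libraries of polyadenylated RNA, 2 of WT mice and 2 of mice with a gene-trap knockout of JMJD1B, whose gene is named Kdm3b in the table. All mice carried the 129P2xC57BL/6J background, no drug or other treatment is named, and the labels give neither their age nor their sex. The knockout was made from 129P2 embryonic stem cells, and no promoter or Cre that would limit it to blood cells is named, so other cells of the marrow may lack JMJD1B as well. The series counts the libraries of each genotype as biological replicates.

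Heat shock proteins are molecular chaperones, which bind unfolded proteins and help them to fold, to assemble or to be degraded. HSP70 takes up unfolded segments under the control of J-domain proteins and nucleotide exchange factors such as HSP110, HSP90 acts later on kinases and receptors, and the ring-shaped chaperonins enclose whole proteins such as actin and tubulin. Many of these genes carry heat shock elements, the DNA sites of heat shock factor 1, whereas the chaperones of the endoplasmic reticulum (ER) are controlled by the unfolded protein response. In red cell precursors, HSP70 protects the transcription factor GATA1, and stem cells depend on controlled protein folding and a low rate of protein synthesis.

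Expression was measured as RPKM, reads per kilobase of transcript, scaled to the depth of the library, which can be compared between genes. The table gives no read counts. Whole-number ratios of low values put the depth at about 17500000 and 24600000 reads in the WT libraries and at 6100000 and 21000000 reads in the JMJD1B-/- libraries, so that 3 reads on a transcript of 1 kb equal 0.122 to 0.491 RPKM, a floor that covers counting error only. Kdm3b had 31.0 and 24.3 RPKM in WT against 4.00 and 4.63 RPKM in JMJD1B-/- HSPCs. The stem and progenitor genes Kit and Cd34 were detected in all 4 libraries. Kit had 66.9 and 62.5 RPKM in WT and 51.6 and 92.7 RPKM in JMJD1B-/- libraries. Cd34 lay lower in JMJD1B-/- libraries, with 20.9 and 11.7 RPKM against 42.9 and 43.5 RPKM in WT. WT replicate 2 stood apart by its Xist level of 332 RPKM, against at most 0.051 RPKM in the other libraries. Xist is transcribed from the inactive X of female cells, so sex may differ between the libraries, and its part in the comparison of genotypes was not tested. Markers of blood lineages moved with genotype, and their values are given beside the chaperone groups.

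Most heat shock and chaperone genes lay somewhat higher in JMJD1B-/- HSPCs, though none passed the adjusted test. Of the 77 genes, 53 had a positive and 24 a negative log2 fold change, given throughout as JMJD1B-/- minus WT of log2(RPKM + 0.1). Their median was 0.13, against −0.02 for all genes tested. In limma, 8 of the 77 genes (10.4%) were higher at an unadjusted p under 0.05, which is named a call from here on, beside 3.81% of all genes tested, and these were Hspa8, Hsph1, Hspa1b, Hspd1, Hspe1, Dnajc6, Dnajc19 and Pdia2. None of the 77 was lower at that threshold in limma, beside 6.33% of all genes, while 1 gene, Dnajc1, was lower in a gene-by-gene test. None passed an adjusted p of 0.05 over all genes tested, a threshold that 0.0421% of all genes passed, and the lowest adjusted p was 0.197 for Hsph1. In bulk RNA, fewer or more cells of a type and less or more RNA per cell cannot be told apart.

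For 31 genes, both JMJD1B-/- values exceeded both WT values (40.3%, beside 20.1% of all genes tested). Both were below WT for 8 genes (10.4%, beside 22.7% of all genes), and the groups overlapped for the other 38. Of the 77 genes, 5 exceeded 1 RPKM in JMJD1B-/- libraries alone (Dnajb7, Dnajc12, Hspa1a, Hspa1b and Hspb6), beside 312 of the 11863 genes tested, and none of the 77 did so in WT libraries alone. Such genes are in the table only because of the group where they were high, which favours a higher value there. Among the 72 genes above 1 RPKM in both genotypes, counted after seeing the data, 7 (9.72%) were called higher beside 3.82% of 11114 genes, and 28 (38.9%, beside 20.3%) had both JMJD1B-/- values above WT. The calls rested partly on single libraries. Without WT replicate 1 the higher calls at an unadjusted p under 0.05 dropped from 8 to 2 (Hsph1 and Hspe1), without JMJD1B-/- replicate 2 they were 5, and without JMJD1B-/- replicate 1, the shallowest library, they were 15. The median log2 fold change of the 77 genes stayed positive with each library left out, between 0.06 and 0.24. The median of all genes tested moved as well, from −0.1 without JMJD1B-/- replicate 2 to 0.09 without JMJD1B-/- replicate 1. Centred on each gene's mean over the 4 libraries, the median of the 77 genes was −0.157 and 0.015 in the WT libraries and 0.016 and 0.16 in the JMJD1B-/- libraries. WT replicate 2 and JMJD1B-/- replicate 1 thus lay at the same height before any scaling between libraries. Genes as a whole lay lower in JMJD1B-/- replicate 1, with a median-ratio scaling factor of 0.9435. The factors were 1.011 and 1.012 in the WT libraries and 1.068 in JMJD1B-/- replicate 2.

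**Figure D1:**
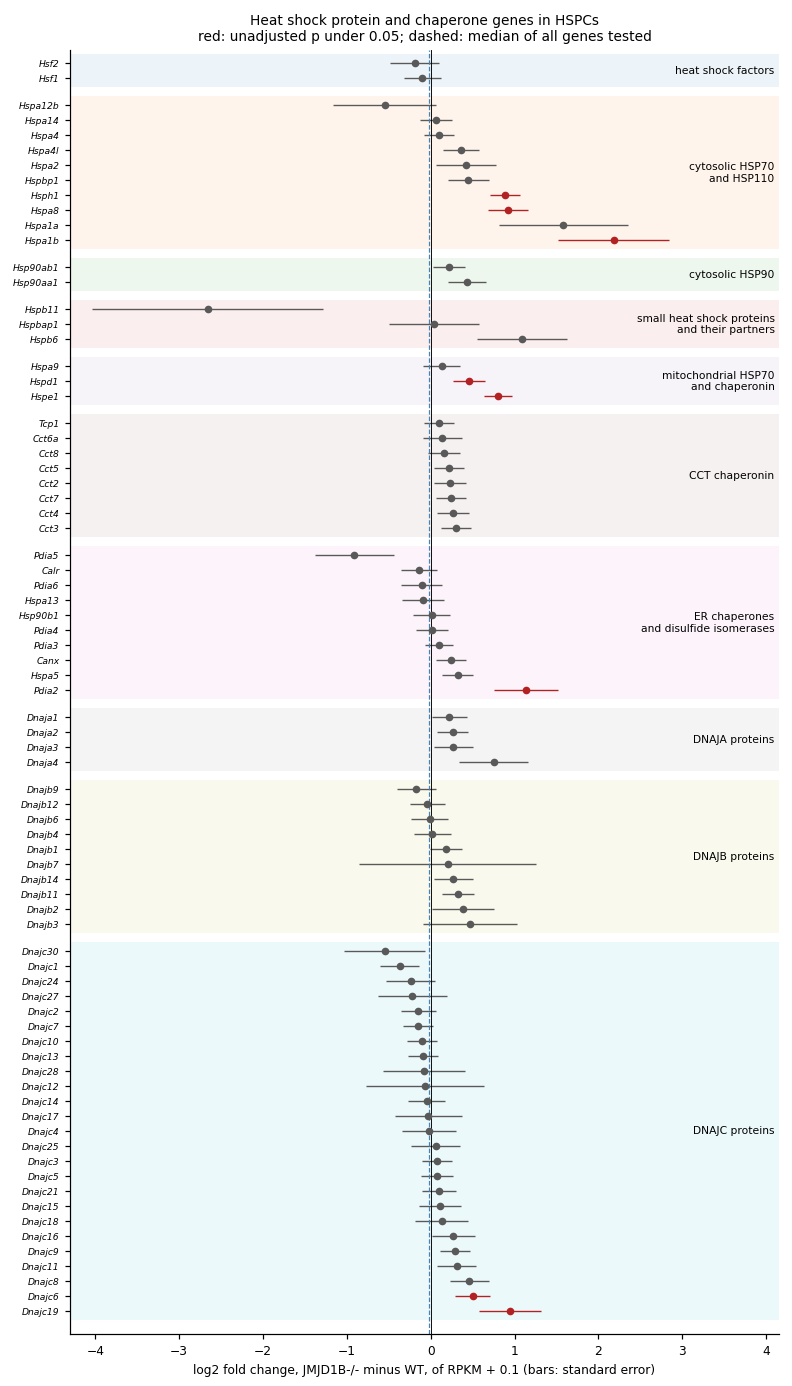
Log2 fold change (JMJD1B-/- minus WT, of RPKM + 0.1) of each of the 77 genes, ordered by role, with its standard error as a bar. The 8 genes at an unadjusted p under 0.05 are red and all lie to the right of 0, and the dashed line marks the median of all genes tested (−0.02).

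The genes spanned a wide range of levels. By WT mean, 5 genes lay under 1 RPKM, 22 between 1 and 10, 34 between 10 and 100, and 16 at or above 100 RPKM. Hspa8 was the highest, followed by the cytosolic HSP90 pair Hsp90ab1 and Hsp90aa1, the ER HSP90 Hsp90b1 and Calr, and the heat-inducible Hspa1a and Hspa1b were the lowest. Summed over all 77 genes, the level was 4810 and 5520 RPKM in WT and 6290 and 6670 RPKM in JMJD1B-/- HSPCs, which do not overlap. Hspa8 alone made up 12.5% and 14.3% of this sum in WT and 19.5% and 21.0% in JMJD1B-/- HSPCs. Without Hspa8 the sums were 4210 and 4730 RPKM in WT and 5060 and 5270 RPKM in JMJD1B-/- libraries, so the order of the libraries stayed the same. As a share of all listed RPKM, the 77 genes took 1.22% and 1.46% in WT and 1.57% and 1.5% in JMJD1B-/- libraries.

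**Figure D2:**
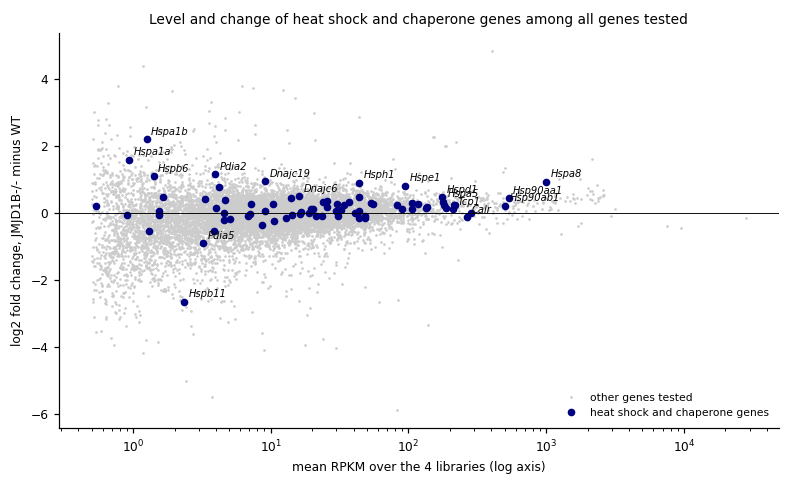
Log2 fold change (JMJD1B-/- minus WT) against the mean RPKM of the 4 libraries on a log axis, for the 77 heat shock and chaperone genes (dark points) and the other genes tested (grey). The abundant members from Hspe1 to Hspa8 sit at or above 0 apart from Calr, and Hspb11 is the lowest member at −2.66.

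The heat shock factors, which drive transcription of heat shock genes, did not differ detectably. Hsf1, the factor that responds to heat and unfolded protein, had 22.6 and 21.2 RPKM in WT and 17.5 and 24.1 RPKM in JMJD1B-/- libraries, with the latter on both sides of the WT values (log2 fold change −0.10 ± 0.22, SE). Hsf2 had 5.37 and 5.35 RPKM in WT and 4.38 and 4.98 RPKM in JMJD1B-/- libraries, both below WT (log2 fold change −0.19 ± 0.29, adjusted p = 0.851 in limma). RNA level says nothing of the activity of these factors, which is set largely on the protein.

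Of the cytosolic HSP70 and HSP110 genes, 9 of 10 had a positive log2 fold change, 7 lay above both WT libraries (beside 20.1% of all genes) and 3 were called (beside 3.81%). With 1 library left out, the calls ranged from 1 without WT replicate 1 to 6 without JMJD1B-/- replicate 1. Without Hspa1a and Hspa1b, which are listed through the JMJD1B-/- libraries alone, 5 of 8 lay above both WT libraries and 2 were called. Hspa8 encodes HSC70, the constitutive HSP70 of the cytosol, and had 604 and 791 RPKM in WT and 1230 and 1400 RPKM in JMJD1B-/- libraries. The JMJD1B-/- mean was 188% of the WT mean, a log2 fold change of 0.92 ± 0.24 (SE) with an adjusted p of 0.304 in limma. Hsph1, the HSP110 that exchanges nucleotide on HSP70, had 29.0 and 31.9 RPKM in WT and 53.7 and 59.5 RPKM in JMJD1B-/- libraries. Here the gap between genotypes was large beside the spread within them (30.4 ± 2.05 against 56.6 ± 4.16 RPKM, SD, n = 2), with a log2 fold change of 0.89 ± 0.18. With 1 library left out at a time it lay between 0.82 and 0.97. Leaving out WT replicate 1 brought the log2 fold change of Hspa8 to 0.73 and ended its call, and quantile normalization, which evens out the libraries at high levels, brought it to 0.52 with the call kept.

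Hspa1a and Hspa1b are the stress-inducible HSP70 genes, which most cells keep near silence until they are heated or otherwise stressed. Hspa1b had 0.305 and 0.473 RPKM in WT and 1.81 and 2.42 RPKM in JMJD1B-/- libraries, which put the log2 fold change at 2.18 ± 0.66 (adjusted p = 0.366). Hspa1a had 0.327 and 0.470 RPKM in WT and 0.936 and 2.01 RPKM in JMJD1B-/- libraries (log2 fold change 1.58 ± 0.77), and it was not called. Both genes stayed under 1 RPKM in WT and entered the table through the JMJD1B-/- libraries, so that a higher value in JMJD1B-/- HSPCs was favoured by the selection, for the call of Hspa1b too. Both were low in every library, and none of the JMJD1B-/- values overlapped WT. The genes are close to identical in sequence, so reads may have been split between them in an arbitrary way, and their sum is given as well, with the same limit. It was 0.632 and 0.943 RPKM in WT and 2.74 and 4.42 RPKM in JMJD1B-/- libraries, a mean 4.55 times that of WT. Without WT replicate 1 the log2 fold change of Hspa1b was 1.93 and it was no longer called, and at these low levels the value depends on the pseudocount (1.16 with 1 and 2.43 with 0.01).

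The remaining genes of the group were not called. The HSP110 relatives Hspa4l and Hspa4 had log2 fold changes of 0.36 and 0.10, and Hspbp1, which encodes a nucleotide exchange factor of HSP70, had 0.45. The testis-enriched Hspa2 had 0.42 and the ribosome-associated Hspa14 had 0.06. Hspa12b was the lone negative gene of the group, with 2.14 and 1.05 RPKM in WT and 0.861 and 1.15 RPKM in JMJD1B-/- libraries, which overlap (log2 fold change −0.55 ± 0.61). As a group, the cytosolic HSP70 and HSP110 genes gave 0.43 as the median log2 fold change and summed to 790 and 1000 RPKM in WT and 1460 and 1660 RPKM in JMJD1B-/- libraries. Quantile normalization left the median at 0.50, with Hspa4 then also negative.

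**Figure D3:**
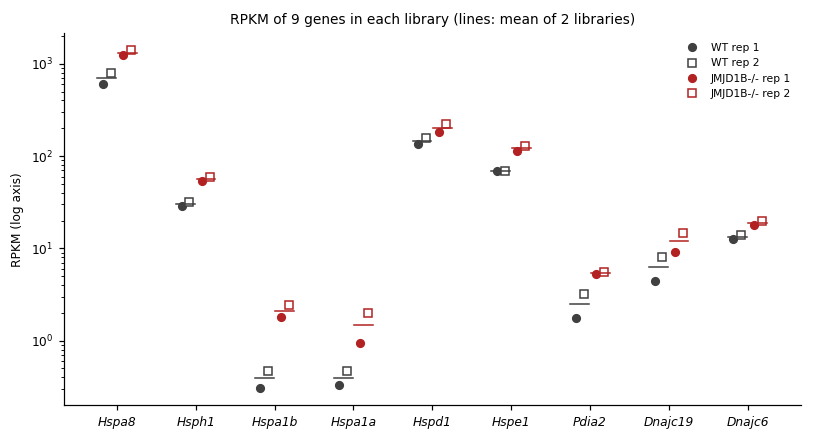
RPKM on a log axis in each of the 4 libraries for the 8 called genes and Hspa1a, with the mean of each genotype as a line. Both JMJD1B-/- libraries (red) lie above both WT libraries (grey) for all 9 genes, from under 3 RPKM for Hspa1a and Hspa1b to over 1000 RPKM for Hspa8.

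The promoters of these genes differ in their heat shock elements, and those of Hsph1 and Hspa1b are printed to show this. For Hspa8 no promoter sequence was found, so it was not searched. A heat shock element was searched as the units GAA and TTC in turn with 2 bases between them, so that 2 units read GAANNTTC or TTCNNGAA and 3 units hold both of these in overlap, on either strand. The windows hold 250 bases before and 50 bases after the RefSeq start of transcription, and capitals mark the matches. In Hsph1 a 3-unit element lies 16 to 28 bases after the start and a 2-unit match lies 54 to 47 bases before it. RefSeq lists another start of Hsph1, from which the same matches lie 37 to 49 bases after and 33 to 26 bases before. Hspa1b holds a 2-unit match 104 to 97 bases before its start, and the Hspa1a promoter has the same base at 296 of 300 positions.
Hsph1, chr5:149636266-149636565, minus strand, GRCm38.p6: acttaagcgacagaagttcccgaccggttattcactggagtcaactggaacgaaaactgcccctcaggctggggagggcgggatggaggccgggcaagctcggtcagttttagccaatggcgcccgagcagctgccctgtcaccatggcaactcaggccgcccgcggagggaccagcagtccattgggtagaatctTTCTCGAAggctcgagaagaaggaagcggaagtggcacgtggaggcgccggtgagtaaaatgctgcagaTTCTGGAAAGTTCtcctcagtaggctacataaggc
Hspa1b, chr17:34959189-34959488, minus strand, GRCm38.p6: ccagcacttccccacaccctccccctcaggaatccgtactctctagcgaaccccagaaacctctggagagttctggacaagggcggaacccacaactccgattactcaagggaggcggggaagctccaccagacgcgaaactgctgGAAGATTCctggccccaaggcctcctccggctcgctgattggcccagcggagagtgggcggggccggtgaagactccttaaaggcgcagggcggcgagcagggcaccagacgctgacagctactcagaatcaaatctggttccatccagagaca

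The mitochondrial chaperonin is a barrel of HSP60 (Hspd1) closed by a lid of HSP10 (Hspe1), and it folds proteins imported into the matrix. Hspe1 had 68.1 and 69.5 RPKM in WT and 112 and 129 RPKM in JMJD1B-/- libraries, with a mean of 175% of WT. The log2 fold change of 0.80 ± 0.17 (limma, adjusted p = 0.211) ranged from 0.70 to 0.91 as libraries were left out in turn. Hspd1 had 136 and 158 RPKM in WT and 184 and 221 RPKM in JMJD1B-/- libraries, also without overlap but with a smaller log2 fold change of 0.46 ± 0.19. It was no longer called without WT replicate 1, WT replicate 2 or JMJD1B-/- replicate 2. The ratio of Hspd1 to Hspe1 RPKM was 2.0 and 2.28 in WT and 1.64 and 1.71 in JMJD1B-/- libraries. Hspa9, the mitochondrial HSP70 that pulls proteins through the import pore, had 119 and 136 RPKM in WT and 117 and 167 RPKM in JMJD1B-/- libraries, on both sides of WT (log2 fold change 0.13 ± 0.22). Hspa8, Hspd1 and Hspe1 have processed pseudogene copies in the genome, and how reads shared with them were counted is not given in the sources used here.

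Hspd1 and Hspe1 stand head to head on chromosome 1 and share 1 promoter between them, which is why a single sequence is printed for both. Their 300-base windows have 285 bases in common. The shared stretch holds 4 heat shock units in a row, 89 to 72 bases before the start of Hspe1 and 144 to 127 bases before the start of Hspd1, which is read from the other strand. The window of another RefSeq start of Hspd1 holds no match. Dnajb6 is printed beside it because it holds a 3-unit element 46 to 34 bases before its start and had nearly equal levels in both genotypes. From the other start of Dnajb6 in RefSeq the element lies 127 to 115 bases before.
Hspe1, chr1:55087898-55088197, plus strand, GRCm38.p6: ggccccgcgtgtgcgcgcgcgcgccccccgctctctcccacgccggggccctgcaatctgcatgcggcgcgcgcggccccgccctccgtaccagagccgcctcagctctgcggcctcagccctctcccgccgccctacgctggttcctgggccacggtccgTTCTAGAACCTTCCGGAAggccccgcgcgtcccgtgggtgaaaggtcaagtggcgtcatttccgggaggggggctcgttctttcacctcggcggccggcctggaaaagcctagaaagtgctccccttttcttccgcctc
Dnajb6, chr5:29735648-29735947, plus strand, GRCm38.p6: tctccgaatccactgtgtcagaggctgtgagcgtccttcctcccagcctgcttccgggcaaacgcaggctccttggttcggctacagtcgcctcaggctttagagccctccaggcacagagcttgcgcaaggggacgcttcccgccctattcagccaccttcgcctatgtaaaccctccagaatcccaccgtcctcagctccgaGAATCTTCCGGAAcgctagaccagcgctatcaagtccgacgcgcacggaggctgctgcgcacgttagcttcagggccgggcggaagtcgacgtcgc

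Over all mouse promoters of the RefSeq table, 15.1% of 32851 held a 2-unit heat shock element and 0.603% held a 3-unit element. No promoter sequence was found for 13 of the 77 genes, with Hspa8, Hsp90aa1 and Hsp90ab1 among them. Promoter sequences were found for the other 64 genes, and a gene with several starts was counted if any of its windows held the element. Among these, 15 (23.4%) held a 2-unit element, beside 14.5% of the tested genes with a promoter, and they had a median log2 fold change of 0.23 against 0.10 in the 49 without it. In the 1206 other tested genes with a 2-unit element the median was −0.05, with 44 called higher and 97 called lower, beside 3.81% and 6.33% of all genes tested. Among the members above 1 RPKM in both genotypes the medians were 0.22 in the 12 with the element and 0.10 in the 48 without it. The 3-unit element was found in 4 genes (6.25%, beside 0.63% of the tested genes): Hsph1, Hspe1, Hspd1 and Dnajb6. The first 3 of these were called higher, beside 3.81% of all genes tested. Dnajb6 had 16.9 and 21.4 RPKM in WT and 17.7 and 20.2 RPKM in JMJD1B-/- libraries (log2 fold change −0.01 ± 0.22). Of the 11 genes with 2 units alone, 9 were positive, and the 3 largest values belonged to Hspa1b, Hspa1a and Hspb6, which are listed through the JMJD1B-/- libraries alone. The letters of a motif are a description of the sequence and do not show that a factor was bound. The 4 genes count as 3 promoters, because Hspd1 and Hspe1 share theirs.

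**Figure D4:**
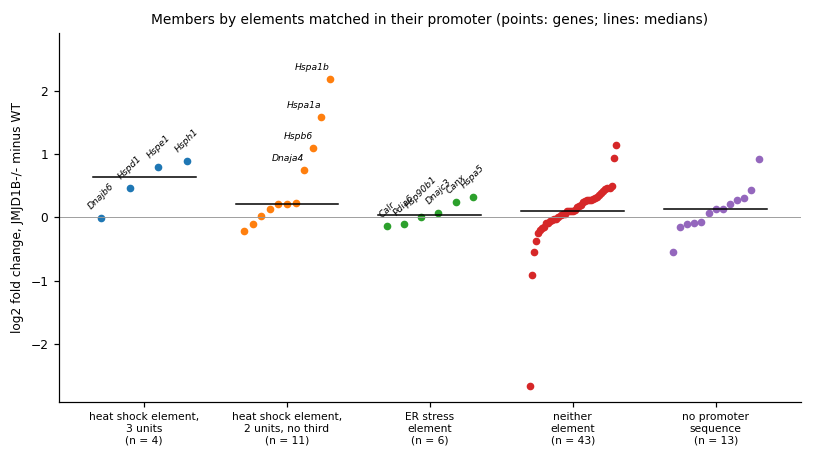
Log2 fold change (JMJD1B-/- minus WT) of the 77 genes by the element matched in their promoter, with each gene as a point and the median as a line. The medians are 0.63 for 4 genes with a 3-unit heat shock element, 0.22 for 11 with 2 units alone, 0.04 for 6 with an ER stress element, 0.10 for 43 with neither and 0.13 for 13 without a promoter sequence.

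The cytosolic HSP90 genes encode the chaperone of kinases and steroid receptors in an inducible (Hsp90aa1) and a constitutive (Hsp90ab1) form. Hsp90aa1 had 387 and 527 RPKM in WT and 651 and 569 RPKM in JMJD1B-/- libraries, with a log2 fold change of 0.43 ± 0.23. Hsp90ab1 had 453 and 471 RPKM in WT and 518 and 556 RPKM in JMJD1B-/- libraries, with a log2 fold change of 0.22 ± 0.19 that became −0.02 under quantile normalization. Neither was called, though for both genes the JMJD1B-/- values lay above WT, beside 20.1% of all genes tested. As a share of all listed RPKM the pair overlapped, with 0.213% and 0.263% in WT and 0.292% and 0.254% in JMJD1B-/- libraries. The ratio of Hsp90aa1 to Hsp90ab1 RPKM varied as much within as between genotypes (0.855 and 1.12 in WT, 1.26 and 1.02 in JMJD1B-/- libraries).

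Co-chaperones that work with HSP70 and HSP90 were taken as a separate list of 24 genes outside the name rule. Of these, 17 had a positive log2 fold change, and the median was 0.21. At an unadjusted p under 0.05 in limma, 4 were higher and none lower, beside 3.81% and 6.33% of all genes. Stip1, the adaptor HOP that passes clients from HSP70 to HSP90, had 58.4 and 64.4 RPKM in WT and 86.8 and 98.7 RPKM in JMJD1B-/- libraries (log2 fold change 0.59 ± 0.18). Chordc1 (0.57), Ahsa1 (0.50), the activator of the HSP90 ATPase, and Bag2 (0.65), an exchange factor of HSP70, were the others. In the gene-by-gene test and in limma without a trend, Stip1 alone was called higher and no gene was called lower. The HSP90 co-chaperones Cdc37 (0.16) and Ppp5c (−0.16) and the stress-inducible Bag3 (0.08) were not called. The 4 calls were lost without WT replicate 1, and 10 genes were called without JMJD1B-/- replicate 1. The median of the list fell to −0.02 when JMJD1B-/- replicate 2 was left out, beside −0.1 for all genes tested.

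The chaperonin CCT is a double ring of 8 different subunits, which folds actin, tubulin and other cytosolic proteins. All 8 genes had positive log2 fold changes, from 0.10 for Tcp1 to 0.30 for Cct3, each with a standard error of 0.18 to 0.23, and none was called in limma or in the gene-by-gene test. Under quantile normalization, 6 of 8 were positive and Cct6a and Tcp1 (−0.05) were not, with a median of 0.08 against 0.22. Cct6a was negative too without WT replicate 1 or JMJD1B-/- replicate 2. The median of the 8 genes ranged from 0.11 without JMJD1B-/- replicate 2 to 0.36 without JMJD1B-/- replicate 1, with 0.14 without WT replicate 1. For all genes tested the median was −0.1, 0.09 and −0.02 in the same order. Cct3 had 91.8 and 97.3 RPKM in WT and 105 and 128 RPKM in JMJD1B-/- libraries, and Tcp1 had 190 and 216 RPKM in WT and 209 and 227 RPKM in JMJD1B-/- libraries. The JMJD1B-/- libraries lay above WT for 5 of the 8 subunits, beside 20.1% of all genes tested. The highest subunit stood at 2.57 and 2.81 times the lowest in WT and at 2.68 and 2.54 times in JMJD1B-/- libraries. Prefoldin, which hands clients to CCT, and regulators of CCT gave 7 of 8 tested genes with a positive log2 fold change, a median of 0.19 (0.09 without WT replicate 1) and no call in limma.

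Chaperones of the ER, where secreted and membrane proteins fold, lay on both sides of 0. Of 10 genes, 6 were positive and 4 negative, with a median log2 fold change of 0.01, and under quantile normalization 4 were positive and 6 negative. Hspa5 encodes BiP, the HSP70 of the ER, and had 151 and 168 RPKM in WT and 210 and 188 RPKM in JMJD1B-/- libraries, a log2 fold change of 0.32 ± 0.18 without a call. Hsp90b1, the ER HSP90 also named GRP94, had 275 and 285 RPKM in WT and 332 and 238 RPKM in JMJD1B-/- libraries (log2 fold change 0.01 ± 0.22, and −0.26 under quantile normalization). Calr had 278 and 273 RPKM in WT and 295 and 212 RPKM in JMJD1B-/- libraries (−0.14 ± 0.21). Both genes had 1 JMJD1B-/- library on each side of WT. Canx, the membrane-bound partner of calreticulin in glycoprotein folding, had 186 and 210 RPKM in WT and 233 and 234 RPKM in JMJD1B-/- libraries (0.24 ± 0.18).

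The protein disulfide isomerases form and rearrange disulfide bonds in the ER. The abundant Pdia3, Pdia4 and Pdia6 had log2 fold changes between −0.11 and 0.10. Pdia2, a low and mainly pancreatic member, was the only ER gene called, with 1.78 and 3.17 RPKM in WT and 5.26 and 5.48 RPKM in JMJD1B-/- libraries (log2 fold change 1.14 ± 0.38), and the call was lost without WT replicate 1, at 0.74. Pdia5 had 3.62 and 4.65 RPKM in WT and 1.41 and 3.19 RPKM in JMJD1B-/- libraries, the most negative value of the group at −0.91 ± 0.47 and without a call. Its lowest value came from the shallow JMJD1B-/- replicate 1, and without that library its log2 fold change was −0.35.

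The ER stress element, the site through which the unfolded protein response acts on these genes, was searched as CCAAT and CCACG set 9 bases apart, on either strand. CCAAT alone is a common promoter box. The full ER stress element was found in 0.119% of all promoters, in 0.178% of the tested genes with a promoter and in 6 of the 64 chaperone genes with one (9.38%), which were Calr, Canx, Dnajc3, Hsp90b1, Hspa5 and Pdia6. Their log2 fold changes lay between −0.14 and 0.32 with a median of 0.04, and none was called. The promoters of Hspa5 and Hsp90b1 are printed as the counterpart of the heat shock promoters, with the element in capitals 65 to 47 bases before the start of Hspa5 and in 2 copies, 212 to 194 and 107 to 89 bases before the start, in Hsp90b1.
Hspa5, chr2:34771840-34772139, plus strand, GRCm38.p6: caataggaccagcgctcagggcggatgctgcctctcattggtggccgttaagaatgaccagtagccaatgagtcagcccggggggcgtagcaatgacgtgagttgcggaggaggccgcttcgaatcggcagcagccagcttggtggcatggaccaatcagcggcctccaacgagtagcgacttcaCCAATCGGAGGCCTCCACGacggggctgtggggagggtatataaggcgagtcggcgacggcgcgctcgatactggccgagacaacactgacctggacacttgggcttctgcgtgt
Hsp90b1, chr10:86705395-86705694, minus strand, GRCm38.p6: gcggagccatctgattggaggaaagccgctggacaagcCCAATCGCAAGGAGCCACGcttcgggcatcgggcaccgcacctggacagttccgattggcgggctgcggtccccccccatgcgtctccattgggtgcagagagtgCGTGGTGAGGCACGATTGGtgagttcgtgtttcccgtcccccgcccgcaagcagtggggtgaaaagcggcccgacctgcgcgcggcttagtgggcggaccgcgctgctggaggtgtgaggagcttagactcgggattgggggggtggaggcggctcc

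Other genes of the unfolded protein response and of ER quality control lay on both sides of 0. Of 23 genes outside the name rule, 8 were positive and 15 negative, with a median log2 fold change of −0.06. Ern1, the sensor IRE1 alpha, was the single gene called in limma, with 26.4 and 19.4 RPKM in WT and 14.0 and 15.1 RPKM in JMJD1B-/- libraries (log2 fold change −0.63 ± 0.23). The call was lost without WT replicate 1, in limma without a trend and in the gene-by-gene test, which called Eif2ak3 lower in its place. Without JMJD1B-/- replicate 1, on the other hand, 5 genes were called lower (Edem1, Ern1, Ero1lb, Herpud1 and Sdf2l1, of which Edem1 and Ero1lb passed the adjusted threshold) and Derl1 was called higher, and 2 were called lower without JMJD1B-/- replicate 2 (Ern1 and Sil1). Atf4 (−0.06), Ddit3 (0.16) and Xbp1 (−0.21), the transcription factors of the response, were not called, nor was Hyou1, the HSP110 of the ER. In mitochondria, 12 chaperones and proteases outside the rule had a median of 0.19 and no call in limma. Without JMJD1B-/- replicate 2 their median was −0.04, beside −0.1 for all genes tested. Grpel1, the exchange factor of mitochondrial HSP70, had 0.51 and the protease Clpp had 0.52. Without JMJD1B-/- replicate 1 this list had 3 genes called higher, and without JMJD1B-/- replicate 2 it had 2 called lower.

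Small heat shock proteins hold unfolded proteins without using ATP, and Hspb6 was the single chaperone of this family among the genes listed. Hspb6 had 0.757 and 0.983 RPKM in WT and 1.97 and 1.92 RPKM in JMJD1B-/- libraries, a log2 fold change of 1.09 ± 0.54 that was not called by limma with a trend, but was called after quantile normalization, by limma without a trend and by the gene-by-gene test. It too was under 1 RPKM in WT and is listed through the JMJD1B-/- libraries alone, which favours a higher value there. Hspb11 encodes a protein of intraflagellar transport, IFT25, despite its name. It had 3.24 and 3.39 RPKM in WT and 2.82 RPKM in JMJD1B-/- replicate 2 and is listed at 0 in JMJD1B-/- replicate 1, and its log2 fold change of −2.66 ± 1.38 rests on that library, without which it is −0.22. Hspbap1 had a log2 fold change of 0.04.

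J-domain proteins bring clients to HSP70 and start its ATPase, and they were the largest group with 39 genes. Of these, 23 were positive and 16 negative, with a median log2 fold change of 0.07, and 2 were called higher, a share near the 3.81% of all genes tested. The 4 DNAJA genes were all positive, under each scaling tried and with each library left out. Their median was 0.27 (0.22 under quantile normalization, 0.13 without WT replicate 1 and 0.42 without WT replicate 2). Dnaja1, a cytosolic partner of HSC70, had 27.0 and 36.2 RPKM in WT and 38.5 and 34.7 RPKM in JMJD1B-/- libraries, which overlap (0.22 ± 0.21). Dnaja2, the most abundant of the 4, had 45.2 and 55.4 RPKM in WT and 60.1 RPKM in both JMJD1B-/- libraries (0.26 ± 0.18). Dnaja4 had the largest change of the 4, from 2.20 and 4.08 RPKM in WT to 4.29 and 6.14 RPKM in JMJD1B-/- libraries (0.75 ± 0.41), and it was not called. With 1 library left out at a time its log2 fold change lay between 0.32 and 1.19.

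Among 10 DNAJB genes the median was 0.19 and none was called in limma. The median was 0.04 without WT replicate 1 and 0.09 without JMJD1B-/- replicate 1, beside −0.02 and 0.09 for all genes tested. Dnajb1, the HSP40 that is induced with HSP70 by heat, had 22.7 and 24.9 RPKM in WT and 24.9 and 29.3 RPKM in JMJD1B-/- libraries (0.18 ± 0.19). Dnajb9, an ER protein that restrains IRE1 alpha, had the lowest value of the group at −0.17 ± 0.23. The highest belonged to Dnajb3, an intronless gene for which the values came from 29 and 26 reads in WT and 16 and 28 reads in JMJD1B-/- libraries (0.47 ± 0.56), which shows how few reads stood behind the scarce members. Dnajb7 likewise rested on 5 to 12 reads a library.

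The 25 DNAJC genes were balanced, with 12 positive, 13 negative (17 and 8 without JMJD1B-/- replicate 1) and a median of −0.02, which quantile normalization raised to 0.10. Without JMJD1B-/- replicate 1 the median was 0.13, beside 0.09 for all genes tested. Dnajc19, a subunit of the motor that pulls proteins into mitochondria, had 4.45 and 8.12 RPKM in WT and 9.14 and 14.8 RPKM in JMJD1B-/- libraries (log2 fold change 0.94 ± 0.37). WT replicate 2 lay nearer to JMJD1B-/- replicate 1 than to the other WT library, and the call was lost without WT replicate 1 (0.51) and without JMJD1B-/- replicate 2 (0.60). Dnajc6, the auxilin that strips clathrin from vesicles with HSC70, had 12.7 and 14.0 RPKM in WT and 17.8 and 20.0 RPKM in JMJD1B-/- libraries (0.50 ± 0.21), and was called with JMJD1B-/- replicate 1 left out but not with any of the other 3 left out. Dnajc2, the ribosome-bound homologue of zuotin and the most abundant of the 25 by WT mean alone (the JMJD1B-/- means of Dnajc9 and Dnajc8 lay above its own), had 44.9 and 56.5 RPKM in WT and 39.8 and 51.7 RPKM in JMJD1B-/- libraries (−0.15 ± 0.21). At the lower end, Dnajc30 had 4.28 and 4.59 RPKM in WT and 1.83 and 4.88 RPKM in JMJD1B-/- libraries (−0.55 ± 0.48), with a change of sign to 0.13 without JMJD1B-/- replicate 1.

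Markers of blood cell types differed between the genotypes in the same libraries. All 8 tested erythroid markers lay above WT in both JMJD1B-/- libraries, 7 of them called, and their summed RPKM was 240 and 352 in WT and 730 and 1790 in JMJD1B-/- libraries. Granulocyte markers summed to 290 and 201 RPKM in WT and 83.7 and 53.7 RPKM in JMJD1B-/- libraries, with 5 of 7 tested markers lower and 2 higher. Basophil and mast cell markers summed to 457 and 533 RPKM in WT and 96.5 and 41.7 RPKM in JMJD1B-/- libraries, all 5 lower, and megakaryocyte markers to 614 and 556 RPKM in WT and 235 and 337 RPKM in JMJD1B-/- libraries, 3 of 5 lower. The monocyte and macrophage markers summed to 120 and 154 RPKM in WT and 94.3 and 26.3 RPKM in JMJD1B-/- libraries, 4 of 6 lower. The stem and progenitor markers summed to 158 and 155 RPKM in WT and 101 and 120 RPKM in JMJD1B-/- libraries. Of these 7, 3 were called lower (Cd34, Flt3 and Mecom), and the median log2 fold change was −1.24. Of the 8 proliferation genes, all had positive log2 fold changes (7 under quantile normalization) with a median of 0.34. It ranged from 0.18 without WT replicate 1 to 0.44 without WT replicate 2. Among these genes Mcm5 was called, though not without WT replicate 1, WT replicate 2 or JMJD1B-/- replicate 2. The part of these cell types in the chaperone values was not tested.

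Markers of other cells that the sample could hold also differed between libraries. T and NK cell markers summed to 13.4, 23.1, 76.1 and 15.0 RPKM in WT replicates 1 and 2 and JMJD1B-/- replicates 1 and 2, with Cd3e and Cd3g called higher of 6 tested, though neither was called without JMJD1B-/- replicate 1. B cell and plasma cell markers summed to 11.1, 58.6, 38.9 and 7.92 RPKM in the same order, with Cd79b called lower of 3 tested. That call was lost under quantile normalization, in the gene-by-gene test and with the replicate block. The median of the 3 ranged from −1.62 without JMJD1B-/- replicate 1 to 1.05 without WT replicate 2. Stroma and endothelium markers summed to 38.2 and 67.4 RPKM in WT and 24.0 and 9.97 RPKM in JMJD1B-/- libraries, which do not overlap. All 5 had negative log2 fold changes with all libraries (2 of the 4 then tested without WT replicate 2), with a median of −1.44, and Col1a2 and Pecam1 were called lower. The median ran from −3.34 without WT replicate 1 to −0.51 without WT replicate 2. The part of these cells in the chaperone values was not tested either.

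Heat shock genes also respond to the handling of tissue, and genes known for this were compared. All 13 genes of tissue dissociation and immediate early response had negative log2 fold changes with all libraries, with a median of −0.32, and Ier2 (−0.75), Ier3 (−1.86) and Zfp36 (−0.84) were called. The shared sign rested on single libraries: 7 were negative and 6 positive without JMJD1B-/- replicate 2, 9 of the 12 then tested were negative without WT replicate 2, and 12 of 13 were negative without JMJD1B-/- replicate 1 or under quantile normalization. For all genes tested the median was −0.1 without JMJD1B-/- replicate 2, −0.03 without WT replicate 2 and 0.09 without JMJD1B-/- replicate 1. The median ranged from −0.56 without WT replicate 1 to −0.07 without WT replicate 2, and without JMJD1B-/- replicate 1 the calls rose from 3 to 7, with Fos and Jun among them. Fos had 80.9 and 112 RPKM in WT and 99.1 and 60.8 RPKM in JMJD1B-/- libraries, and Jun had 86.8 and 109 RPKM in WT and 102 and 69.6 RPKM in JMJD1B-/- libraries, both overlapping. The part of handling in the chaperone values was not tested.

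**Figure D5:**
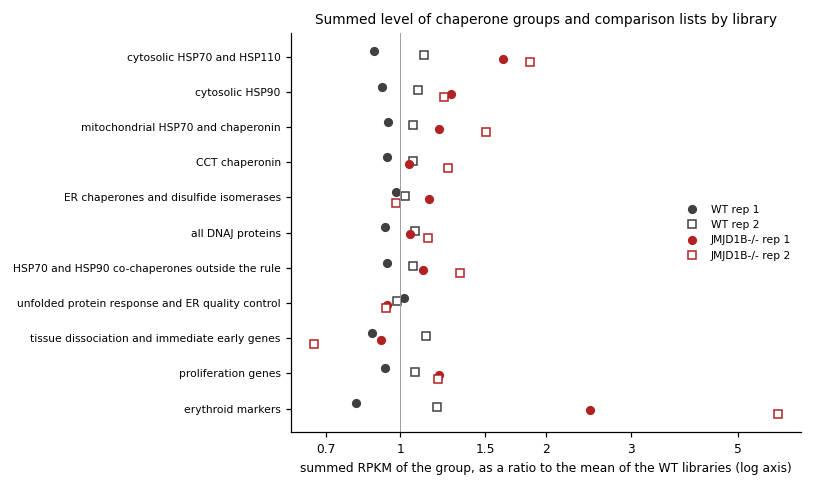
Summed RPKM of chaperone groups and comparison lists in each library, as a ratio to the mean of the WT libraries on a log axis. The cytosolic HSP70 and HSP110 sums of the JMJD1B-/- libraries (red, 1460 and 1660 RPKM) lie to the right of WT (790 and 1000 RPKM), the ER chaperones overlap with WT, and the erythroid markers lie farthest to the right.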

How the data were processed

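HSPCs were profiled by polyA RNA-seq in 2 WT and 2 JMJD1B-/- libraries, and the ChIP-seq samples of the series were not used. The authors deposited RPKM values with 1 added, in 12024 entries for 11982 gene names, for genes above 1 RPKM in at least 1 library. The submitters' processing notes name TopHat2, Novoalign and mm9, and the annotation and counting program are not given in the sources used here. The added 1 was subtracted, entries of 1 name were averaged (42 names), and the comparison used log2(RPKM + 0.1) of genes whose mean RPKM reached 0.5, a scale that understates the change of low genes. The test was limma 3.58.1 with a trend in R 4.3.3, two-sided and Benjamini-Hochberg adjusted over 11863 genes, with tables and figures made in Python 3.11.15, and it was tested on simulated data. An exact test of 2 against 2 libraries cannot give a p below 0.333. "Called" means an unadjusted p under 0.05 in limma. P-values measure the spread between these libraries.

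Depth was inferred from whole-number ratios of low values and from the spans of intronless genes (14 genes gave this depth, and the next depth was given by 5). Replicate numbers did not pair the libraries. The 77 genes and the comparison lists were chosen with earlier results of these data known. Named with values were fixed core members, the highest, most negative and most positive member of each role, every called gene and every member listed at 0, and others were named after their values were seen. Promoters are RefSeq sequences of GRCm38.p6, matched by symbol. Alternatives were other pseudocounts (1 and 0.01), filters (none, and a mean RPKM of at least 1), scalings and tests, a replicate block, entries kept apart, each library left out and, added after seeing the data, counts over genes above 1 RPKM in both genotypes.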

Additional observations from a re-analysis of the deposited data

How the results depend on the processing

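With each library left out in turn, the genes called higher ranged from 127 to 1367 (452 with all libraries) and those called lower from 190 to 1777 (751), and the chaperone genes called higher ranged from 2 to 15, called lower from 0 to 4 and past an adjusted p of 0.05 from 0 to 4. Fewer libraries leave fewer degrees of freedom, and a lone library is assumed to vary like the other group. The gene-by-gene test called 5 chaperone genes higher and 1 lower (Dnajc1). Sharing a number did not pair the libraries (correlation of deviations −0.0543 over 11863 genes), and the fit with the replicate block put 2 chaperone genes (Hsph1 and Hspe1) past an adjusted p of 0.05 and called 1 lower (Hspb11). Among all 77 genes, quantile normalization changed the sign of 11 and leaving out a library that of 28. Of the genes named with values by rule, quantile normalization turned Hsp90ab1 (−0.017), Hsp90b1 (−0.26) and Tcp1 (−0.046), and leaving out libraries turned Calr (−0.38 to 0.10), Dnajb9 (−0.36 to 0.026), Dnajc2 (−0.34 to 0.036), Dnajc30 (−1.23 to 0.13), Hsf1 (−0.32 to 0.13), Hsp90b1 (−0.23 to 0.25) and Hspa9 (−0.12 to 0.39). None of the genes that changed sign with a library left out was called with all libraries. The cause was not tested. Of the 8 called genes, Hsph1 and Hspe1 were called under all 14 alternatives, Hspa1b under 13, Hspa8 and Pdia2 under 12, Dnajc19 and Dnajc6 under 10 and Hspd1 under 9, and none of the 8 changed sign. Counting only genes above 1 RPKM in both genotypes, added after seeing the data, moved none of the counts over all 77 genes or over all genes tested by more than 1.5 times, but among genes whose promoter held 2 units alone it lowered those above both WT libraries from 6 of 11 to 3 of 8 and ended the 1 call, Hspa1b. Libraries that do not overlap were not counted under quantile normalization or with a library left out. The estimated depth of JMJD1B-/- replicate 1 limits genes of low RPKM.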

Other observations

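The 3-unit heat shock element was also matched in the promoters of 49 tested genes outside the chaperone genes, which were looked at after the values of the chaperones were seen. Their median log2 fold change (JMJD1B-/- minus WT) was 0.04, with 3 called higher and 4 called lower, beside 3.81% and 6.33% of all genes tested. The 9 tested genes outside the chaperones with an ER stress element lay at a median of −0.18 on the same scale, and none was called in limma at an unadjusted p under 0.05.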
